A study of Rattus norvegicus with 12 samples.

Results

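Genes used as readings of kidney injury were followed here across 4 doses of cephaloridine, a cephalosporin antibiotic known to damage the proximal tubule. The 8 genes were Havcr1, Lcn2, Timp1, Spp1, Clu, Gpnmb, Cd44 and Vim, chosen by name among genes of this kind. They took up 9 probes and 27 spots of each array, out of 41011 probes and 43378 spots that were not controls. Male Fisher 344 rats, 8 weeks old, received a single intravenous dose in saline of 0 mg/kg (control), 150 mg/kg (low), 300 mg/kg (middle) or 600 mg/kg (high), and the kidney cortex was taken 24 h later. Each group held 3 animals with 1 single-colour Agilent array per animal, and the stated question was how expression at doses without toxicity compares with expression at toxic doses. The data therefore hold 1 time point and 1 part of the kidney, and no measure of kidney function or histology was used here.

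When tubule cells are injured, the survivors lose polarity, spread and divide to close the gaps, and many switch on genes that a resting tubule hardly uses. Havcr1 encodes the shed membrane receptor KIM-1, which lets tubule cells take up dead neighbours; Lcn2 encodes the secreted siderophore carrier NGAL; both proteins are measured in urine as injury markers, as are osteopontin (Spp1), clusterin (Clu) and TIMP-1 (Timp1). Gpnmb, Cd44 and Vim encode a lysosomal and surface glycoprotein, a hyaluronan receptor and an intermediate filament protein, and all are found in dedifferentiated tubule cells as well as in macrophages and stroma. In bulk cortex, fewer cells of a type and less RNA per cell cannot be told apart.

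A signal below is a linear array signal written as a percentage of the 75th percentile of all probes on the same array; probes differ in brightness for reasons other than RNA amount, so no gene's signal is set against another gene's. Changes are log2 differences of group means from limma, fitted on all 12 arrays, with standard errors for n = 3 animals per group and Benjamini-Hochberg adjusted p-values over the 20759 genes or transcripts tested; a gene was called at an adjusted p under 0.05. The arrays were alike, with 59.2% to 63.3% of probes well above background and 0 saturated spots, and no spot of the 8 genes carried an outlier mark. Arrays were printed on slides, and the file headers place controls 1 to 3 with low 1 on slide 1, low 2 with middle 1 on slide 2, low 3 with middle 2 on slide 3, and middle 3 with the 3 high animals on slide 4. No slide held both control and high animals, so they can be compared only across slides. The step from middle to high can be read within slide 4. A fit that takes the slide as a block (the slide-blocked fit) links control to high through the low and middle animals. Its values are given where they differ in call. In that fit low against control rests on low 1 and high against middle on middle 3. Each was the only animal of its group on the slide shared with the other group.

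At 600 mg/kg, 5 of the 8 genes rose against control: Havcr1, Gpnmb, Timp1, Lcn2 and Cd44. Spp1, Clu and Vim did not pass the test, and no gene fell. Lcn2 met the filter on dim probes through the high group alone, so its call is not independent of that filter; the other 7 genes were well above background on all 12 arrays. Over all genes tested 34.8% were called in this comparison, 18% higher and 16.8% lower. The same shares belong beside each count of listed genes called at 600 mg/kg against control below. The 3 high animals lay above all 3 controls for 7 of the 8 genes, all but Vim, where 28.5% of all genes tested did so. The slide-blocked fit called 2 of the 8 against control, Timp1 and Gpnmb, and 2.81% of all genes tested. At 300 mg/kg Gpnmb alone was called with all arrays in the fit (1 of 8, higher, with 13% called over all genes tested), and at 150 mg/kg none of the 8 was called (0 of 8 by limma, with 0.101% called over all genes tested and none of the 8 under an unadjusted p of 0.05). The median log2 change of the 8 genes was 0.11 at 150 mg/kg, -0.16 at 300 mg/kg and 0.86 at 600 mg/kg, beside medians of 0.01, 0.02 and 0.00 over all genes tested.

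**Figure D1:**
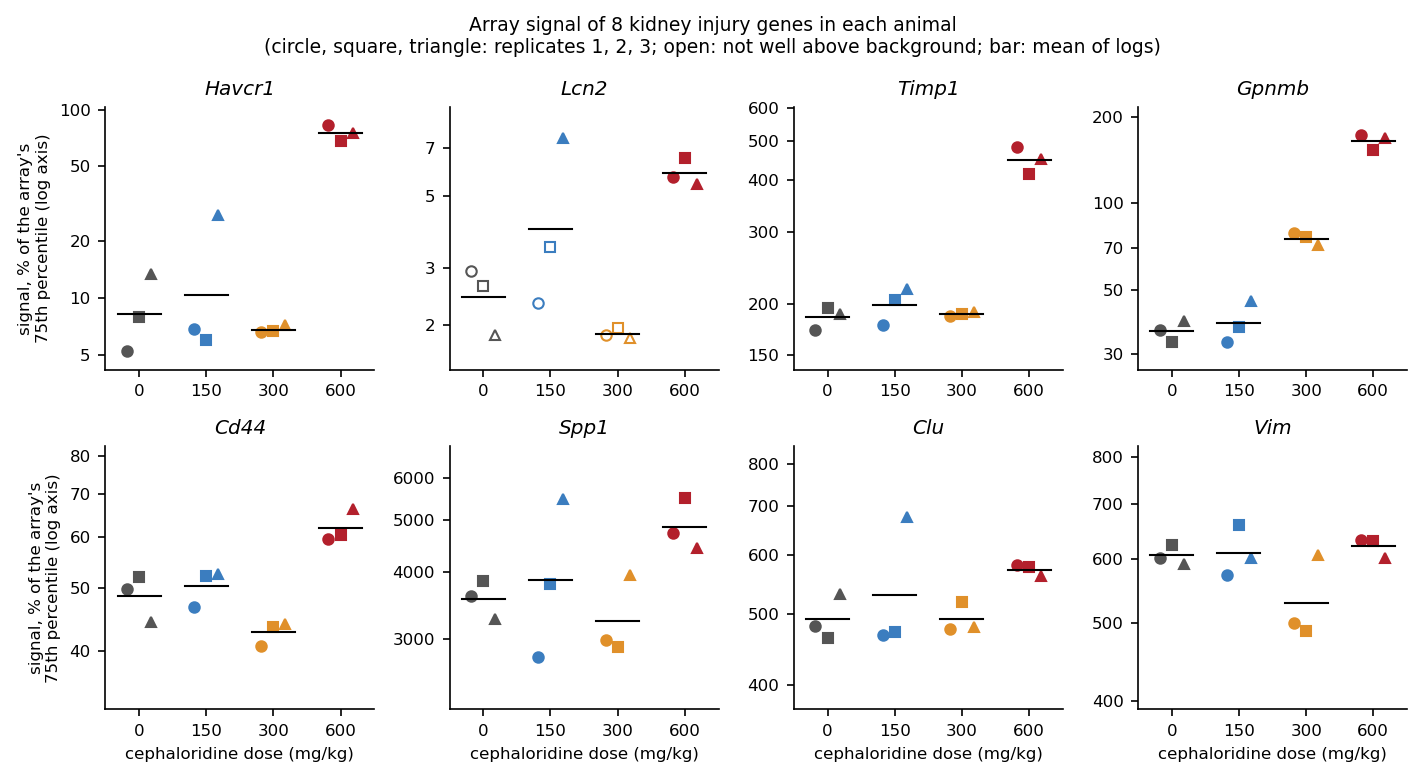
Signal of each of the 8 genes (log axis, percent of the array's 75th percentile) in each of the 12 animals by dose in mg/kg; circles, squares and triangles are replicates 1, 2 and 3, open symbols are spots not well above background, and bars are means of the log values (n = 3). Havcr1, Timp1 and Gpnmb stand clear of every lower dose at 600 mg/kg, Gpnmb is already higher at 300 mg/kg, and replicate 3 of the low group is the highest low animal for every gene but Vim.

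Havcr1 showed the largest change of the 8 genes, and it came between 300 and 600 mg/kg. Its signal was 5.23, 8.00 and 13.4 in controls 1 to 3, 6.85, 6.04 and 27.6 in low animals 1 to 3, and 6.61, 6.67 and 7.18 in the middle animals. In the high animals it was 82.5, 67.8 and 75.5. All 3 high animals stood above every other animal, the middle animals lay inside the control range, and low 3 stood between the high animals and the rest. Against control the rise was 9.11-fold (log2 3.19 ± 0.51 SE, adjusted p = 0.00123), the 15th largest of 20759. Against the middle dose it was 11.0-fold (log2 3.46 ± 0.51, adjusted p = 0.00127). With the normexp background correction both rises were smaller and still called (log2 2.24 and 2.43). That correction added an offset of 50 to every signal, which narrows the changes of dim probes.

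Within slide 4 alone, the high animals exceeded middle 3 by 3.39 on the log2 scale (10.5-fold). The slide-blocked fit kept the call against the middle dose (adjusted p = 0.0226) and lost the call against control (log2 2.16, SE 1.05, adjusted p = 0.278). That blocked value against control passes through low 3 and a chain of single arrays, and its standard error was 1.05 against 0.51. No change was called at 300 mg/kg (log2 -0.27, 95% interval -1.40 to 0.86), an interval that still allows changes of either sign.

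None of the 3 measured genes listed around KIM-1 passed the test at 600 mg/kg. Adam10 and Adam17, which encode surface proteases, had log2 changes of -0.01 and 0.03 (adjusted p = 0.931 and 0.637), and Nr4a1, the nuclear receptor NUR77 that KIM-1 binds, had 0.07 (adjusted p = 0.925). Blocked by slide, Nr4a1 differed at 300 mg/kg against control (log2 -2.85, adjusted p = 0.0436), which the unblocked fit did not call (log2 -0.90, adjusted p = 0.207).

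The promoter of Havcr1 is shown because this gene had the widest change, together with those of Timp1 and Gpnmb, which were called at 600 mg/kg against control with and without the slide block. RefSeq's promoter table (GRCr8, 250 bases before to 50 bases after a listed start) matched 7 of the 8 genes. Searched on both strands were AP-1 (TGANTCA), STAT (TTCNNNGAA), the E-box of MiT/TFE factors (CACGTG), a heat shock element pair (GAANNTTC) and NF-kB (a motif of 10 letters). The windows below are chr10:31629528-31629827 on the plus strand for Havcr1, chrX:3771073-3771372 on the minus strand for Timp1 and chr4:79340878-79341177 on the plus strand for Gpnmb, written 5′ to 3′ with matches in capitals.
Havcr1: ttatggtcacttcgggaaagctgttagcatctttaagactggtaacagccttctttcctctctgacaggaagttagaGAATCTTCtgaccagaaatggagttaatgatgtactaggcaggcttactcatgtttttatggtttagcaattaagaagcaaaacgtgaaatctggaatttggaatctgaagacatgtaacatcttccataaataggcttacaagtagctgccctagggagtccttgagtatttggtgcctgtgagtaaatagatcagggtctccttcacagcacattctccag
Timp1: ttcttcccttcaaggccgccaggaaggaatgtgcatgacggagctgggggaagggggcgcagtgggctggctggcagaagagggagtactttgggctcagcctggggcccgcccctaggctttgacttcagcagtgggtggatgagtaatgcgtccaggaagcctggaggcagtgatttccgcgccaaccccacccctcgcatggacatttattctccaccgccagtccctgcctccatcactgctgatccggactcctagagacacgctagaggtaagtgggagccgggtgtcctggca
Gpnmb: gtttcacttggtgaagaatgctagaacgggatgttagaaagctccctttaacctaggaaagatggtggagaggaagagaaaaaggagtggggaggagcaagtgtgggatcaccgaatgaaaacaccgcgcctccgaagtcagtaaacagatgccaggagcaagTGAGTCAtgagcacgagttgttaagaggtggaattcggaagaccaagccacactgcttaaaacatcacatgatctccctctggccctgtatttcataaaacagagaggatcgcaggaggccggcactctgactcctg
Havcr1 holds 1 heat shock pair (GAATCTTC, first base at -173 from the listed start) and Gpnmb 1 AP-1 match (TGAGTCA, first base at -87); Timp1 holds none of the letters searched. Among all 33469 windows of this length, 8.59% hold the heat shock pair and 7.33% the AP-1 letters, and over the 7 genes each was found in 1. STAT, E-box and NF-kB letters were found in 0 of the 7 and in 8.87%, 6.42% and 0.362% of all windows. Only the letters given above were searched, so other sequences that the same factors may bind are not covered. The listed starts of Havcr1 and Timp1 lie 9864 and 1456 bases inside the outer edge of the annotated gene, so starts annotated farther out are not in these windows.

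Lcn2 was dim, and its rise at 600 mg/kg rests on few measured arrays. The signal was 2.94, 2.64 and 1.86 in controls, 2.34, 3.46 and 7.50 in low animals and 1.85, 1.95 and 1.81 in middle animals. It was 5.69, 6.51 and 5.42 in high animals. The probe was well above background in 3 of 3 high animals, in 1 of 3 low animals (low 3), and in 0 of 3 controls and 0 of 3 middle animals; low 3 exceeded all high animals. Since controls were not well above background, the fold is given as a bound on the main signal scale, as is every value below written as at least. It was taken as the high mean over the mean, per dim array, of the lowest well-measured signal of any probe, or the probe's own if higher. The detection limit of the probe itself is not known.

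On that basis Lcn2 was at least 1.76-fold higher at 600 mg/kg than in controls (adjusted p = 0.0159, and 0.0391 with no filter on dim probes). Against the middle dose it was at least 1.88-fold higher (adjusted p = 0.00708, 0.0207 with no filter, and 0.0238 in the slide-blocked fit). With the normexp correction and its offset the fitted log2 values were 0.36 and 0.48, still called, against 1.27 and 1.65 without it. These normexp values are smaller than the bounds, which therefore do not hold across processing. The call against control was lost without control 3 (adjusted p = 0.0578) and in the slide-blocked fit (adjusted p = 0.852, fitted log2 0.21), within a range of 0.00122 to 0.852 over all settings tried. The high and low groups overlapped and did not differ by the test (log2 0.58, 95% interval -0.18 to 1.33, adjusted p = 0.239); without low 3 the fitted difference was 1.04 (adjusted p = 0.0086).

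All 4 measured genes on the list for Lcn2 uptake and binding fell at 600 mg/kg. They were Lrp2 and Cubn, the paired scavenger receptors that retrieve filtered proteins (log2 -0.44 and -0.41, adjusted p = 0.00592 and 0.00119), Slc22a17, the NGAL receptor (-0.29, adjusted p = 0.00216), and Mmp9, the protease that NGAL binds (-0.31, adjusted p = 0.0149). Blocked by slide, none of the 4 was called (adjusted p = 0.142 to 0.863), and the sign of Lrp2 turned (log2 0.04). Lrp2 and Cubn also belong to the proximal tubule marker list.

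Timp1, the inhibitor of metalloproteinases, rose in 1 step at the highest dose. Its signal was 173, 196 and 189 in controls, 178, 205 and 217 in low animals and 187, 189 and 192 in middle animals. It reached 483, 415 and 452 in high animals, all above every animal of the other groups, while those 3 groups overlapped. The rise was 2.42-fold against control (log2 1.27 ± 0.08, adjusted p = 9.05e-06) and 2.37-fold against the middle dose (log2 1.25 ± 0.08, adjusted p = 1.74e-05). Blocked by slide, the calls stood (log2 0.996, adjusted p = 0.0372, and log2 1.23, adjusted p = 0.00195). At 300 mg/kg the change was 0.02 (95% interval -0.16 to 0.21).

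Timp1 and Spp1 were each spotted 10 times per array, which gives the error of a spot. The coefficient of variation among the 10 spots ran from 1.23% to 2.94% for Timp1 and from 3.35% to 4.99% for Spp1. Between the 3 animals of a group it ran from 8.05% to 33.9% for Spp1, above that of the spots in all 4 groups. For Timp1 it ran from 1.29% in the middle group, below the single spots of those arrays, to 10.1% in the low group. An animal's value is the mean of its 10 spots, which varies less than a single spot. The spot percentages hold only the scatter within an array. With 1 array per animal, error between arrays cannot be separated from differences between animals, so the full error of an animal's value is not known.

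Among the 7 measured genes listed around Timp1, 3 rose and 2 fell. Mmp3 (stromelysin, a target of the inhibitor) was not well above background in any control, low or middle animal, and its signals in the high animals were 22.0, 9.17 and 13.9. That was at least 4.25-fold above control (adjusted p = 4.13e-06, and 0.0301 in the slide-blocked fit). It met the filter on dim probes through the high group alone, and with no filter had adjusted p = 3.13e-05. Mmp2, a gelatinase, rose by 0.44 (adjusted p = 0.00236), and Mmp14, the membrane protease that activates it, by 0.25 (adjusted p = 0.0103). The other inhibitor Timp3 fell by 0.63 (adjusted p = 0.00015) and Mmp9 fell as above, whereas Timp2 and the surface partner Cd63 had 0.11 and 0.06 (adjusted p = 0.14 and 0.529). Of these, Mmp3 alone kept its call in the slide-blocked fit; Mmp2, Mmp14, Mmp9 and Timp3 had adjusted p = 0.15 to 0.688.

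Gpnmb was the only one of the 8 genes called at 300 mg/kg with all arrays in the fit, and it rose in 2 steps; without middle 3, Vim was called too. Its signal was 36.4, 32.9 and 38.9 in controls and 33.0, 37.1 and 45.9 in low animals. It was 78.6, 76.3 and 71.8 in middle animals and 173, 153 and 169 in high animals. Control and low animals overlapped, the middle animals stood above both, and the high animals stood above all. The middle dose exceeded control 2.10-fold (log2 1.07 ± 0.11, adjusted p = 0.00124), the 43rd largest change of 20759, and exceeded the low dose 1.97-fold (log2 0.98, adjusted p = 0.00765). The high dose exceeded the middle 2.19-fold (log2 1.13 ± 0.11, adjusted p = 0.000156) and control 4.59-fold.

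The step from low to middle can be read on 2 slides. Middle 1 exceeded low 2 by 1.08 on slide 2 and middle 2 exceeded low 3 by 0.73 on slide 3. The slide-blocked fit kept the step from low to middle (log2 0.91, adjusted p = 0.0388) and the steps to high, but not middle against control (log2 0.78, adjusted p = 0.108). For low against middle, 0.231% of all genes tested were called, and Gpnmb was the only one of the 8. The call was lost without low 2 (adjusted p = 0.0543), without middle 2 (adjusted p = 0.0575), with array weights and with only these groups in the fit; over all settings it ran from 0.00122 to 0.185.

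The genes listed around Gpnmb showed no shared direction. Of 10 measured, 2 rose and 2 fell at 600 mg/kg: Atp6v0d2, a subunit of the proton pump, rose by 0.52 (adjusted p = 0.000547), and Ctsd, the protease cathepsin D, by 0.23 (adjusted p = 0.0247). Lamp1, a lysosomal membrane protein, fell by 0.20 (adjusted p = 0.0124), and Sdc4, a heparan sulfate receptor that binds the Gpnmb protein, fell by 0.19 (adjusted p = 0.00339). The transcription factor genes of the MiT/TFE family did not pass: Mitf had -0.27, Tfeb 0.15, Tfe3 -0.25 and Tfec -0.21 (adjusted p = 0.107, 0.0922, 0.324 and 0.0638), and neither did the cathepsin genes Ctsb and Ctsk (-0.07 and 0.15). None of the 10 was called in the slide-blocked fit.

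Cd44, the hyaluronan receptor, rose by a small amount at 600 mg/kg. Its signal was 49.8, 52.1 and 44.4 in controls, 46.9, 52.2 and 52.6 in low animals and 40.7, 43.6 and 44.0 in middle animals. The high animals had 59.5, 60.4 and 66.2 and lay above all others; the middle animals lay below all controls and all low animals, though neither difference was called (log2 -0.19 and -0.24, adjusted p = 0.119 and 0.176). The high dose exceeded control 1.27-fold (log2 0.35 ± 0.07, adjusted p = 0.00502) and the middle dose 1.45-fold (log2 0.54 ± 0.07, adjusted p = 0.000924). Blocked by slide, the step from middle to high stood (log2 0.49, adjusted p = 0.0302) and the change against control did not (log2 0.13, adjusted p = 0.71). The second Cd44 probe was well above background on 0 of 12 arrays and was not tested, so the result rests on 1 probe.

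Around Cd44, 1 of 8 measured genes rose and 3 fell. Has1, a hyaluronan synthase, was not well above background in any control, low or middle animal and had signals of 12.5, 6.35 and 5.84 in the high animals, at least 2.33-fold above control (adjusted p = 0.00407). It too met the filter on dim probes through the high group alone, and with no filter had adjusted p = 0.012. The hyaluronidase gene Hyal1 fell by 0.52 (adjusted p = 0.000995), Slk, a kinase of the membrane linkers, by 0.54 (adjusted p = 0.00166) and the linker gene Rdx by 0.13 (adjusted p = 0.048). The other linkers Ezr and Msn, Hyal2 and the hyaluronan receptor gene Hmmr had changes from -0.06 to 0.19 that did not pass. None of the 8 was called in the slide-blocked fit, where Has1 had adjusted p = 0.164.

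**Figure D2:**
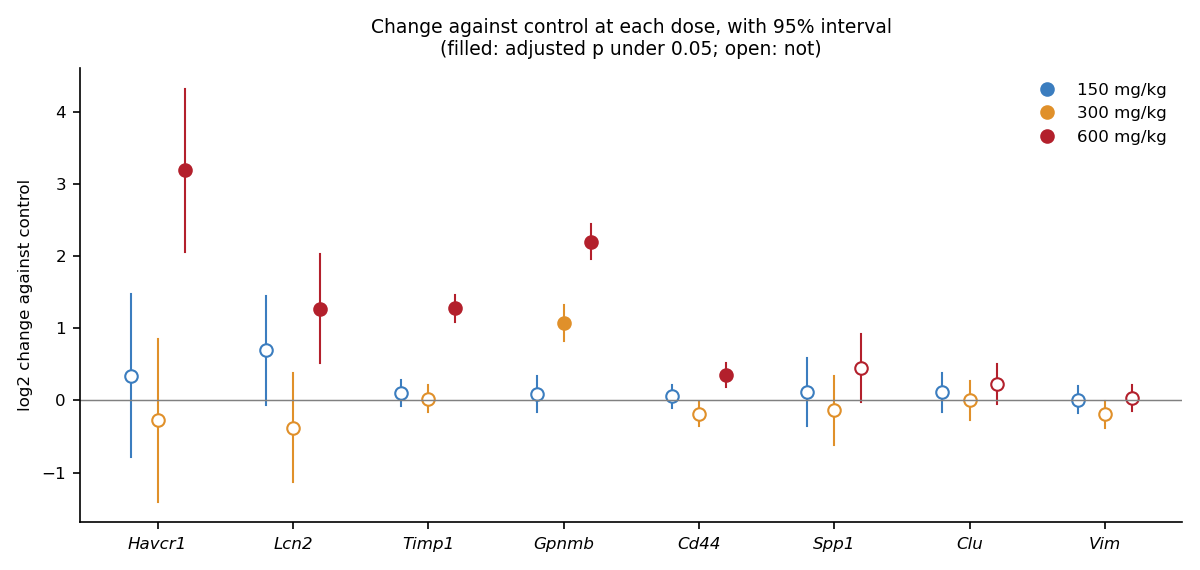
Change of each of the 8 genes against control (log2, vertical axis) at 150, 300 and 600 mg/kg, with 95% intervals from limma (n = 3 animals per group); filled points passed an adjusted p of 0.05. 5 genes are filled at 600 mg/kg and Gpnmb alone at 300 mg/kg; the Lcn2 points are fitted values, which are no bounds.

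Spp1, the secreted matrix protein osteopontin, was higher in the high animals than in controls without passing the test. Its signal was 3610.3, 3839 and 3267 in controls, 2767, 3799 and 5462 in low animals, 2978, 2889 and 3939.9 in middle animals and 4723, 5494 and 4424 in high animals. High animals lay above all control and all middle animals, while the low group spanned nearly the whole range. The change against control was 0.45 on the log2 scale (95% interval -0.03 to 0.92, adjusted p = 0.131). Without low 3, whose spread enters the shared error, the same change had adjusted p = 0.0498, and with only the control and high groups in the fit 0.0151. Blocked by slide, it turned to -0.70 (adjusted p = 0.225); over all settings its adjusted p ran from 0.0151 to 0.297.

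None of the 5 measured integrin genes on the list of osteopontin receptors passed at 600 mg/kg. Itgav, Itgb5 and Itgb6 had changes of 0.02, -0.02 and 0.07, Itgb1 had -0.21 (adjusted p = 0.14), and Itga4 had -0.91 (adjusted p = 0.0564), with only 1 of 3 high animals well above background.

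Clu, the secreted chaperone clusterin, gave narrow values in the high group and 1 outlying low animal. Its signal was 481, 463 and 532 in controls, 468, 472 and 676 in low animals, 477, 518 and 479.7 in middle animals and 582, 578 and 562 in high animals. The high animals lay above all control and middle animals, and low 3 lay above every high animal. The change against control was 1.17-fold (log2 0.22, 95% interval -0.05 to 0.50) and did not pass (adjusted p = 0.182). Without low 3 it was called (adjusted p = 0.0179), as it was with only the control and high groups in the fit (adjusted p = 0.0279). Blocked by slide, the change was 0.00 (adjusted p = 0.994). Of the 4 genes listed around Clu, the receptor genes Lrp2 and Vldlr fell (Vldlr by 0.25, adjusted p = 0.0357), and Lrp8 and the heat shock regulator Hsf1 had 0.17 and 0.03 and did not pass. Neither receptor gene was called in the slide-blocked fit (adjusted p = 0.863 and 0.972).

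Vim, the filament protein of mesenchymal and dedifferentiated cells, did not differ between control and high animals by the test. Its signal was 601, 624 and 591 in controls, 572, 660.4 and 601 in low animals, 499, 489 and 605 in middle animals and 632, 631 and 602 in high animals. The groups overlapped, and middle 1 and middle 2 were the lowest of the 12. The change at 600 mg/kg was 0.04 (95% interval -0.14 to 0.22, adjusted p = 0.752), an interval that leaves out a rise of the size seen for Cd44. Without middle 3 the middle dose was called lower than control (log2 -0.29, adjusted p = 0.0259) and the high dose higher than the middle (log2 0.33, adjusted p = 0.00706); with all arrays these were -0.20 (adjusted p = 0.136) and 0.23 (adjusted p = 0.0661).

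Among the 7 other filament and linker genes measured, Krt18, a keratin of simple epithelia, rose by 0.29 (adjusted p = 0.0123) and Plec, the cytolinker plectin, by 0.36 (adjusted p = 0.00224) at 600 mg/kg, and the keratin gene Krt7 fell by 0.44 (adjusted p = 0.00084). Krt8, Krt19, Nes and Des had changes from -0.06 to 0.25 that did not pass. Blocked by slide, none of the 7 was called.

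**Figure D3:**
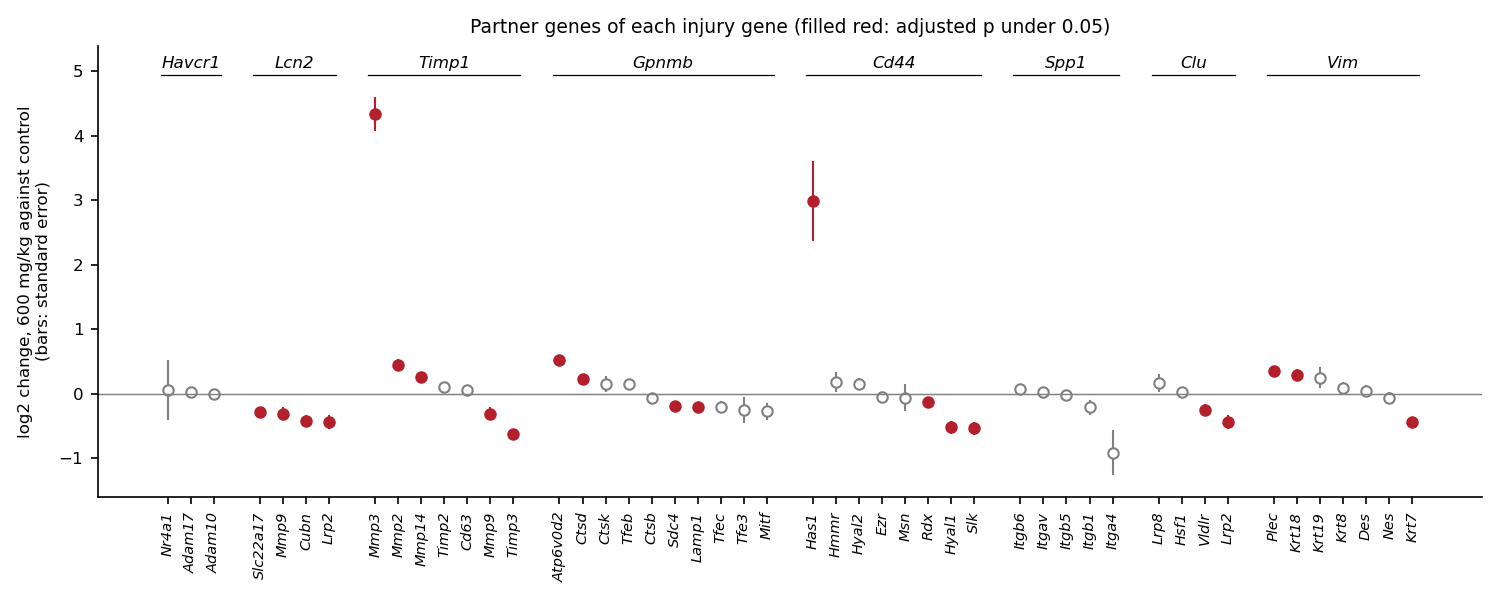
Log2 change at 600 mg/kg against control, with standard errors (n = 3 animals per group), of the genes listed beside each of the 8 genes; filled red points passed an adjusted p of 0.05. Mmp3 and Has1 stand highest and are fitted values of probes not well above background in controls. Over all 46 measured partner genes 8 rose and 12 fell, where 18% of all genes tested were called higher and 16.8% lower. Mmp3 and Has1 are among the 8 although they met the filter on dim probes through the high group alone. Lrp2 and Mmp9 appear under both lists that hold them.

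The comparison of high with middle animals, where slide 4 holds both groups, called the same 5 genes as high against control (5 of 8, all higher, with 22.5% called and 9.61% called higher over all genes tested). Lcn2 is in the counts of this comparison although it met the filter on dim probes through the high group alone. Its call is therefore not independent of that filter. All 5 were still called in the slide-blocked fit, where 9.75% of all genes tested were called. That fit reads this step from slide 4 alone, against middle 3, so its changes are the same differences as those within the slide. They are not a second comparison. Within slide 4 each of the 3 high animals exceeded middle 3 for every gene but Vim. The average differences were 1.23 for Timp1, 1.20 for Gpnmb and 0.49 for Cd44 (log2). Lcn2, not well above background in middle 3, exceeded it at least 1.92-fold. Spp1 and Clu exceeded it by 0.30 and 0.26 on average within the slide, and Vim by 0.04. Over all slides the high animals lay above all middle animals for 7 of the 8 genes, where 15.5% of all genes tested did so.

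**Figure D4:**
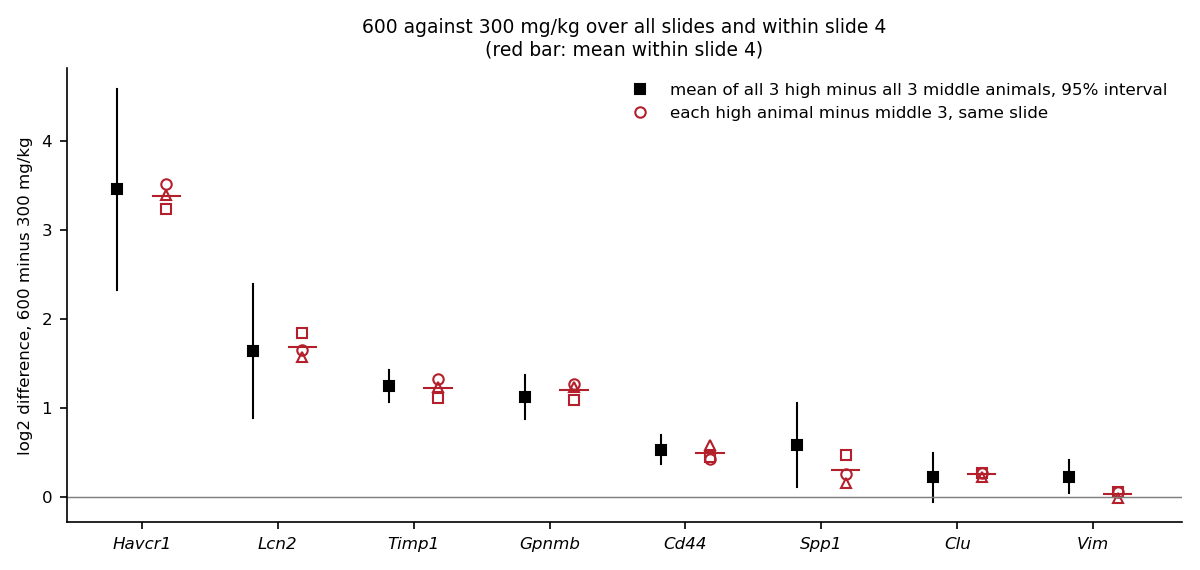
Difference between 600 and 300 mg/kg (log2, vertical axis) for each gene: black squares with 95% intervals use all 3 animals of each group, and red open symbols give each high animal minus middle 3, which shared slide 4, with a bar at their mean. The values within the slide lie close to those over all slides for Havcr1, Lcn2, Timp1, Gpnmb, Cd44 and Clu, and lie lower for Spp1 and Vim; the Lcn2 points are fitted values, which are no bounds.

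High against low called 4 genes (Havcr1, Timp1, Gpnmb and Cd44, all higher, with 27% called over all genes tested), and the groups did not overlap for the same 4, where 23.5% of all genes tested lay wholly higher. Differences were 2.84 for Havcr1, 1.17 for Timp1, 2.11 for Gpnmb and 0.30 for Cd44 (adjusted p = 0.00305, 1.43e-05, 2.91e-06 and 0.0151). Without low 3 the difference for Havcr1 was 3.54 (adjusted p = 0.000146). In the slide-blocked fit, which called 6.32% of all genes tested, Timp1 and Gpnmb were called (adjusted p = 0.0103 and 0.00399). Without low 3, 7 of the 8 genes were called in this comparison, all but Vim, while 19.8% of all genes tested were called.

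The animal low 3 was singled out after its values were seen. It was the highest of the 3 low animals for 7 of the 8 genes, and over all genes tested for 30.5%. It also lay above every control for the same 7 genes. For that count the share over all genes tested was not computed, so it cannot be weighed. The 3 low animals were on different slides. On slide 3, middle 2 minus low 3 was -2.05 for Havcr1, -0.92 for Spp1, -0.38 for Clu and -0.30 for Vim (log2). It was -0.27 for Cd44, -0.20 for Timp1 and 0.73 for Gpnmb, and -1.94 for Lcn2, a fitted value as Lcn2 was dim in middle 2. A part of the slide in the values of low 3 was not tested. The values of low 3 did not keep the proportions of the high group. Lcn2, Clu and Spp1 reached 128%, 118% and 112% of the mean at 600 mg/kg, Cd44 84.9%, Timp1 48.4%, Havcr1 36.7% and Gpnmb 27.8%. The control mean alone was 85.6% of it for Clu, 73.3% for Spp1, 78.5% for Cd44, 41.4% for Timp1, 11.0% for Havcr1 and 21.8% for Gpnmb, and Lcn2 was not well above background there. Havcr1 in low 3 was 4.29-fold and Lcn2, not well above background in low 1 or low 2, at least 2.17-fold above the mean of low 1 and low 2, against 1.14-fold for Timp1 and 1.31-fold for Gpnmb. The summed signals of the proximal tubule, macrophage and T cell marker lists in low 3 were 52581, 5156 and 140.8. They were 55461, 5115 and 131.1 in low 1, and 50964, 5635 and 132.2 in low 2. The T cell sum was highest in low 3, and the proximal tubule and macrophage sums lay between those of low 1 and low 2. Such sums add linear signals and are weighted to the brightest probes of a list.

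**Figure D5:**
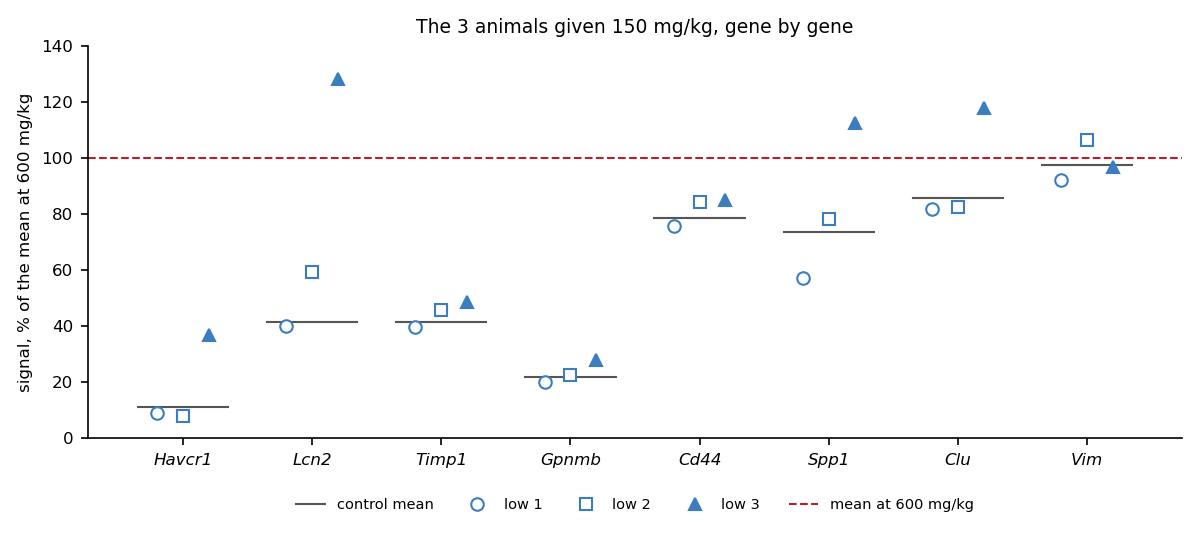
Signal of each gene in the 3 animals given 150 mg/kg, as a percentage of the mean at 600 mg/kg (dashed line), with the control mean as a grey bar; filled triangles are low 3. Low 3 exceeds the 600 mg/kg mean for Lcn2, Spp1 and Clu and stays under 50% of it for Havcr1, Timp1 and Gpnmb.

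Over the 12 arrays the genes fell into unlike patterns. Havcr1 followed Timp1 most closely (Pearson r = 0.94), Lcn2 followed Spp1 (r = 0.88), Gpnmb followed Timp1 (r = 0.87), and Vim had r = -0.02 with Gpnmb. These are descriptions over 12 arrays that share groups and slides, so any genes high at 600 mg/kg correlate. Among 10989 other named genes, the 3 most like Timp1 were Nop56, Tgfb1 and Lgals3 (r = 0.99 each), and those most like Gpnmb were Rfc2, Hnrnpa1 and Me2 (r = 0.99 each). Nearest to Havcr1 were Uck2, Shtn1 and Rprd1a (r = 0.95 each), to Cd44 Rassf1, Fgl2 and Pla1a (r = 0.95, 0.94 and 0.94), and to Lcn2 Atf3, Sfnl1 and Ppp1r15a (r = 0.93, 0.92 and 0.92). Mrc1 and Fcgr2a were among the genes nearest to Spp1 (r = 0.92 and 0.90), and Vim was nearest to Fst, Smim3 and Ppfia4 (r = 0.95, 0.94 and 0.94). For Clu the highest r was 0.86.

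Other genes used as injury readings also changed at 600 mg/kg. Of 38 listed, 32 were measured, and the list sets no direction of change for any gene. At 600 mg/kg 17 rose and 1 fell, where 18% of all genes tested were called higher and 16.8% lower. The median log2 change was 0.25 beside 0.00 over all genes tested. At 300 mg/kg 4 rose and 2 fell, where 8.21% of all genes tested were called higher and 4.81% lower. The chemokine gene Ccl2 rose 4.40-fold (log2 2.14, adjusted p = 0.0231), with control signals of 175, 501 and 120.2 and high signals of 1504, 706 and 849. The fibrinogen chain gene Fgb rose 2.83-fold (log2 1.50, adjusted p = 3.65e-05), and Rgn, the calcium-binding protein regucalcin, fell by 0.70 (adjusted p = 0.00184). Blocked by slide, 4 of the 32 were called against control. Fgb (adjusted p = 0.0275) and Calb1, a calcium-binding protein of the distal tubule (adjusted p = 0.0275), were higher and Rgn (adjusted p = 0.00971) lower, as without the block. Ccn1, a secreted matricellular protein, was called lower in that fit alone (log2 -1.95, adjusted p = 0.0265, against 0.06 and 0.917 without it), and Ccl2 was not called (adjusted p = 0.34). Gstp1, Ccn1 and Calb1 were chosen after their values were seen.

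Some lists of cell type markers shifted at 600 mg/kg against control along with these genes. Of all genes tested 34.8% were called there, 18% higher and 16.8% lower. The sums below add linear signals, so the brightest probes of a list weigh most in them. Of 9 proximal tubule markers 8 fell and none rose, and their summed signal ran from 36568 to 38532 in high animals against 52221 to 54817 in controls. Of 10 measured macrophage markers 7 rose and none fell, with summed signals of 5841 to 6668 against 4622 to 5224; Cd163 was not well above background on any array. Blocked by slide, 2 of the 9 and 0 of the 10 were called. Of 5 inner medulla or papilla markers none was called, and their sums overlapped (1016 to 1249 against 999.9 to 1192). That sum rests mostly on the Fxyd4 probe, with a mean log2 signal of 3.01 in controls, where the next brightest, Krt19, had 1.31. Of the neutrophil list only S100a9 was tested, through the high group: it was well above background in 3 of 3 high animals, 1 of 3 controls and no low or middle animal, with signals of 3.21 to 4.62 in high animals against 1.79 to 3.76 in controls. Its listed companions Mpo, Cxcr2 and Camp were not well above background on any array. Of 7 endothelial markers 5 fell and none rose, with sums of 4334 to 4580.1 against 5446 to 5750 in controls. That sum rests mostly on the Kdr probe, with a mean log2 signal of 5.61 in controls, where the next brightest, Emcn, had 2.46. The median log2 change of the 7 was -0.27. Of 7 markers of fibroblasts, pericytes or smooth muscle, Dcn and Pdgfra rose and Tagln fell, and the sums overlapped (6666 to 7211 against 6041 to 6728). None of these 14 was called with slides blocked. Loop and distal tubule markers rose in 3 of 6 and collecting duct markers in 3 of 7, none falling, with 1 and 0 called in the slide-blocked fit. Of the podocyte, T cell and red blood cell lists, 1 of 4, 1 of 5 and 1 of 2 fell and 1 T cell marker rose; no B cell marker was tested. The part of these shifts in the changes of Havcr1, Lcn2, Timp1, Gpnmb and Cd44 was not tested.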

How the data were processed

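Kidney cortex RNA of 12 rats was read on single-colour Agilent arrays, 1 per animal. Per the file headers, the authors extracted linear intensity values with Feature Extraction 9.1.3.1, with local background subtraction and no scaling between arrays; flags are 0 or 1. The deposited value table is a ratio: the processed signal, floored at 5, over 1 constant per array (all 40748 probes spotted once within 0.1%), linear and not centred per gene, with column medians near 1. The genome build of the array annotation is not given in the sources used here. Spots without outlier marks were averaged per probe, divided by the array's 75th percentile and taken to log2. The brightest probe stood for a gene. Of 35528 genes or transcripts, 20759 had a signal well above background in each animal of 1 group or more; these entered the limma fit (version 3.58.1, R 4.3.3; 1 mean per group, 8 residual degrees of freedom, two-sided); the script was tested on simulated data. The number of arrays limits precision.

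Genes were matched by accession, symbol or older symbol. Named were the 8 genes, the listed genes beside them, the 3 genes most correlated with each (not all are reported here for Spp1, and none for Clu), and, in the injury list, the called genes with the largest rises and falls. Gstp1, Ccn1 and Calb1 of the injury list were named after their values were seen. The 8 genes, the lists and the tests were chosen with earlier results of these data known. Alternatives tried were other scalings, normexp, the value table, filters, probe rules, only the compared groups, moderation, array weights, blocks for slide, scan day and replicate number, and leaving out each array.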

Additional observations from a re-analysis of the deposited data

How the results depend on the processing

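The 5 rises from 300 to 600 mg/kg stood under every setting that kept the gene; Lcn2 had no value where a probe had to be well above background on all 12 arrays. With slide as a block, 2 genes (Timp1 and Gpnmb) stayed called at 600 mg/kg against control, 2 against the low dose, and 0 at 300 mg/kg against control; the step to 300 from 150 mg/kg had 0 calls with only the compared groups and with array weights. Leaving out 1 array at a time, calls ran from 4 to 7 for high against control, 3 to 7 for high against low (7 without low 3), 5 to 7 for high against middle, 1 to 2 for middle against control (2 without middle 3), 0 to 1 for middle against low and 0 to 0 for low against control. With the replicate block the counts of calls were 0, 1, 5, 1, 5 and 4 in the order low, middle and high against control, middle against low, and high against middle and low, as without it; same-numbered animals did not deviate together (correlations from -0.23 to 0.12), so the numbers do not pair them.

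Signs turned for changes that were called neither with all arrays nor under the alternative; the widest of them were Lcn2 at 150 mg/kg (log2 0.69, a fitted value of a dim probe), Havcr1 for middle against low (-0.62) and Spp1 at 600 mg/kg (0.45). With slide as a block, the log2 change at 150 mg/kg against control became -0.27 for Havcr1, -0.056 for Lcn2, -0.063 for Timp1, -0.13 for Gpnmb, -0.054 for Cd44, -0.37 for Spp1, -0.070 for Clu and -0.082 for Vim; at 300 mg/kg it became -0.23 for Timp1 and -0.25 for Clu; at 600 mg/kg it became -0.70 for Spp1 and -0.39 for Vim, and against the low dose -0.33 and -0.31. The blocked values at 150 mg/kg against control are those of low 1 alone minus the controls, since no other low animal shared their slide. Clu at 300 mg/kg became -0.046 with quantile normalization, -0.025 with normexp and -0.00037 with array weights. Vim at 150 mg/kg became -0.0028 with quantile normalization and -0.0052 with array weights. Leaving out 1 array at a time, changes at 150 mg/kg ran from -0.36 to 0.74 for Havcr1, -0.041 to 0.20 for Gpnmb, -0.14 to 0.35 for Spp1 and -0.063 to 0.20 for Clu, turning without low 3 in each case, from -0.013 to 0.11 for Cd44 and from -0.047 to 0.057 for Vim. Those at 300 mg/kg ran from -0.60 to 0.076 for Havcr1, -0.026 to 0.063 for Timp1 and -0.042 to 0.058 for Clu; middle minus low ran from -1.01 to 0.083 for Havcr1 and -0.20 to 0.064 for Clu, and high minus low from -0.019 to 0.084 for Vim. Any cause beyond which animals enter a value was not tested.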

Other observations

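Probes outside the naming rule also bear on these genes. A transcript tag that the array files describe as similar to clusterin was well above background on 6 of 12 arrays, 1 of them a control, and a probe for a partial CD44 transcript on 0 of 12. Neither was counted with Clu or Cd44.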
